A study of Homo sapiens with 9 samples.

Results

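*PAX5* and 8 other B-lineage genes were followed in SKNO-1 cells, an established human acute myeloid leukaemia (AML) line, after knockdown of *ASXL2*. The 9 genes, of 25680 gene symbols in the count files, were matched by symbol: *PAX5*, *EBF1*, *POU2AF1*, *IGLL1*, *VPREB1*, *CD79A*, *CD79B*, *CD22* and *BLK*. *PAX5* was chosen by its fold change against the control, which was negative with both shRNAs in earlier results of these data, and the others for belonging to the same lineage, so the *PAX5* values against the control are given as a description without a test. Of the 9 genes, 5 had a count in every sample and are called detected (*PAX5*, *IGLL1*, *CD79A*, *CD79B* and *CD22*). The other 4 had no count or 1 count. *CD22* had only 1 count in the SH2 sample numbered 25 and was not distinguishable from absence there.

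In normal B-cell development, EBF1 and PAX5 are transcription factors that commit a progenitor to the B lineage, and PAX5 activates genes such as *CD79A* while repressing genes of other lineages. IGLL1 and VPREB1 together form the surrogate light chain of the pre-B cell receptor, and CD79A and CD79B carry the signal of that receptor into the cell. AML with the RUNX1-RUNX1T1 (AML1-ETO) fusion, which SKNO-1 cells have, is known for expressing some B-lineage genes in cells that are otherwise myeloid.

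RNA was sequenced from 3 groups of 3 samples. The control group is named EV in the labels without an explanation, and the study describes a control shRNA. The groups SH2 and SH3 carried different shRNAs against *ASXL2*, a chromatin regulator of the polycomb group. All groups shared the fusion, the line and culture with GM-CSF, so they represent a single cell line with a partial knockdown, and each group held samples numbered 1, 13 and 25, whose meaning the labels do not give. The study calls the samples biological replicates, but nothing states how separate the cultures were, so p values measure the spread between these samples.

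The totals were 27714431 to 35406063 counts per sample with 1 transcript row per gene, and 3 counts, taken as the limit that a count of 0 allows, corresponded to 0.0847 to 0.108 CPM (read counts scaled to library size) for counting error only. *ASXL2* fell from 70.2 ± 3.94 CPM in EV (SD, n = 3) to 34.3 ± 3.35 in SH2 and 32.4 ± 7.66 in SH3, and each of the 6 knockdown samples was below each control. With the shRNAs averaged, its log2 fold change was -1.09 (SE 0.08, edgeR adjusted p = 0.00098) when the sample number entered as a block, and -1.07 (SE 0.13, adjusted p = 0.177) when it did not. Samples with the same number resembled each other across groups, so the fit with the block is given where it changes a call. Of 15 myeloid markers, 13 exceeded 10 counts in some sample, and *MPO*, which encodes myeloperoxidase, lay between 6370 and 10200 CPM. The other 2 were *CD34*, with at most 10 counts in a sample, and *CSF2RA*, with 1 count over all samples. Reads that match several places may have been dropped in the counting, so this count does not show that *CSF2RA* was absent. The T-cell receptor genes *CD3E* and *CD3G* had no count, and the 13 T-lineage markers summed to 5.53 to 7.13 CPM over the samples.

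The B-lineage genes of SKNO-1 cells formed an incomplete set. *EBF1*, *VPREB1* and *BLK*, which encodes a B-cell kinase of the SRC family, had a count of 0 in all 9 samples. *POU2AF1*, a coactivator that works with the octamer-binding factors, had 1 count in the SH3 sample numbered 1 and none in the other 8. None of these 4 was distinguishable from absence at this depth, and no change of them could be assessed. The B-cell surface marker *MS4A1*, which encodes CD20, had no count in any sample, so the label of a B-lineage programme holds for some of its genes and not for this defining marker. Among 23 stage and surface markers, 13 never exceeded 10 counts, as did 6 of 20 B-lineage transcription factors and 6 of 10 genes that PAX5 is known to activate. *EBF3*, a relative of *EBF1* that was looked up after its value was seen, had 8.58 to 20.5 CPM.

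**Figure D1:**
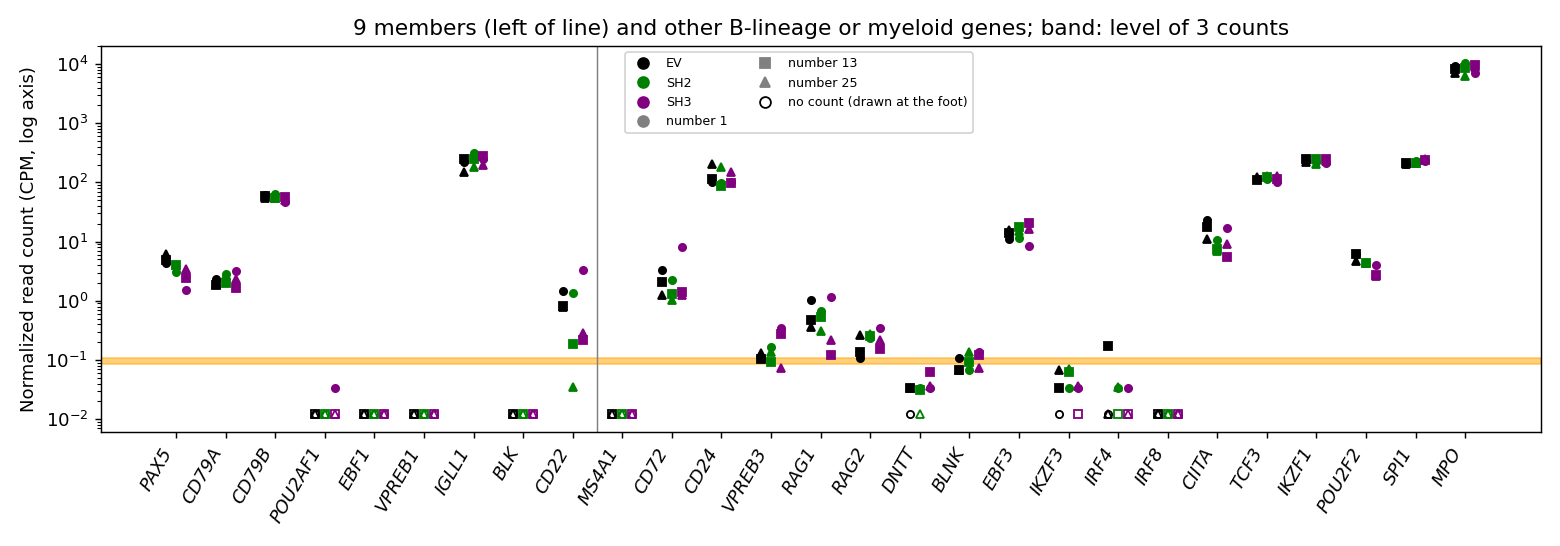
Normalized read counts (CPM, log axis) of the 9 genes, left of the vertical line, and of 18 other lineage genes in each sample, with groups by colour, numbers by symbol, and the band at the level of 3 counts. *IGLL1* and *CD79B* stand far above the band, *EBF1*, *VPREB1* and *BLK* have only open symbols (no count), and *MPO* is the highest.

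Per kilobase of the canonical transcript, the detected genes kept a clear order at the top. The level of *IGLL1* was 170.0 to 358.0 RPKM (CPM per kilobase) over the 9 samples, that of *CD79B* 37.7 to 51.8 and that of *CD79A* 1.52 to 2.94, with no overlap between these ranges. *PAX5* (0.172 to 0.697 RPKM) and *CD22* (0.0106 to 1.03 RPKM) overlapped each other, and both lay below *CD79A* in every sample. The products of *CD79A* and *CD79B* pair in a receptor, yet the median level of *CD79B* was 44 RPKM and that of *CD79A* 2.13. The lengths came from the GENCODE canonical transcript (8704 nt for *PAX5*, 883 nt for *IGLL1*) and need not be those of the rows counted.

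The promoters of *IGLL1* and *VPREB1* are shown because their products pair in the surrogate light chain while only *IGLL1* was detected; those of *PAX5* and *CD79A* are shown as a regulator and its classical target. RefSeq (GRCh38.p14) gave a promoter for 6 of the 9 genes, and the 250 bases before the start are printed 5′ to 3′ on the gene's strand. They lie at chr22:23580291-23580540 (minus strand), chr22:22244536-22244785 (plus), chr9:37034269-37034518 (minus) and chr19:41877029-41877278 (plus). Capitals mark TGTGGT, the core bound by RUNX factors, CAGGTG, an E-box bound by E proteins, and CCCNNGGG, the core of EBF sites, each searched on both strands; neighbouring or overlapping matches run together.
IGLL1: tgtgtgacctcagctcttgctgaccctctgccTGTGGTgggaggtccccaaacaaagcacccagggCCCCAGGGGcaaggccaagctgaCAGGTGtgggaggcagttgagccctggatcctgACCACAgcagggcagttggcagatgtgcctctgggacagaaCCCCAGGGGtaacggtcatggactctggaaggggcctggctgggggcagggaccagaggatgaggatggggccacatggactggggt
VPREB1: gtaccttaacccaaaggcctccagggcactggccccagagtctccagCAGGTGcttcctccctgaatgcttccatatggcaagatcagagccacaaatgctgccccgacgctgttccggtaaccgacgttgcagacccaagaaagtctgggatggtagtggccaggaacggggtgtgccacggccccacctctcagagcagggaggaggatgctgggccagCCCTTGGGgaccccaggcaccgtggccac
PAX5: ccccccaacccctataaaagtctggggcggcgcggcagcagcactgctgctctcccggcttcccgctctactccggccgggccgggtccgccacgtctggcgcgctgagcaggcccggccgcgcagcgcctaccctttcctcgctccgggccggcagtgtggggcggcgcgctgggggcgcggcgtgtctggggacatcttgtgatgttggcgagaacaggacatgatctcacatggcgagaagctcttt
CD79A: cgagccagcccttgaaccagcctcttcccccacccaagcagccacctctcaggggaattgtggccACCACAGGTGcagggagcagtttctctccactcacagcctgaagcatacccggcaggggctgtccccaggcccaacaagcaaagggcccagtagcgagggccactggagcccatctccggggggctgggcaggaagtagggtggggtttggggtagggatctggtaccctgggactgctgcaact

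The *IGLL1* window held 2 matches to TGTGGT, 1 to CAGGTG and 4 to CCCNNGGG, the last in overlapping pairs at 2 places. The *VPREB1* window held 1 match each to CAGGTG and CCCNNGGG and none to TGTGGT. The *CD79A* window held 1 match to TGTGGT overlapping 1 to CAGGTG, and the windows of *PAX5*, *EBF1* and *CD22* held none of the motifs. Over all 35116 promoters of this length, 11.0% held TGTGGT, 17.5% CAGGTG and 17.1% CCCNNGGG. The matches describe the letters of these windows and not binding.

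*PAX5*, on chromosome 9 (GRCh37, 36833266 to 37034265, minus strand), was lower in every knockdown sample than in every control. The EV samples numbered 1, 13 and 25 had 159, 145 and 182 counts, or 4.37, 4.93 and 6.07 CPM. In SH2 the counts were 92, 127 and 117, or 3.08, 3.98 and 4.05 CPM. In SH3 they were 44, 78 and 93, or 1.5, 2.41 and 3.38 CPM. The SH3 sample numbered 1 was the lowest of all, and the ranges of SH2 and SH3 overlapped. The level relative to the same-numbered control was 72.7% ± 7.2 in SH2 and 46.3% ± 11.0 in SH3 (SD, n = 3). The log2 fold change was -0.47 (SE 0.28) for SH2, -1.08 (SE 0.29) for SH3 and -0.77 (SE 0.24) for both averaged. For comparison, 2.61% of the 14199 genes tested were lower in all 6 knockdown samples than in all controls, and 11.6% were lower than the same-numbered control in all 6 pairs; the choice of *PAX5* used these values. In such bulk samples, fewer cells that express a gene and less RNA of it per cell cannot be told apart.

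All 13 deposited transcript rows of *PAX5* gave nearly the same count, with a spread of 1 to 5 counts within a sample, so the rows did not separate its isoforms. Its canonical transcript of 8704 nt compares with a median of 3182 nt over tested genes. With a correction for transcript length in the fit with the block, the log2 fold change was -0.31 (SE 0.16) for SH2 and -0.99 (SE 0.17) for SH3. The values given above had neither the block nor the correction, so the difference from them is not that of the correction alone. The library did not keep the strand, and 2 lncRNA genes lie on the opposite strand within *PAX5* (ENSG00000258885 and ENSG00000250850), so reads from them could not be told apart.

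The difference between the shRNAs was not used to choose *PAX5* and could be tested. *PAX5* was lower in SH3 than in SH2 for each of the 3 numbers, and the log2 difference of -0.61 (SE 0.29) did not pass (edgeR adjusted p = 0.998). With the block it was -0.64 (SE 0.18, adjusted p = 0.214), which did not pass either. *ASXL2* itself differed between SH3 and SH2 by -0.08 (SE 0.16, edgeR adjusted p = 0.998).

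**Figure D2:**
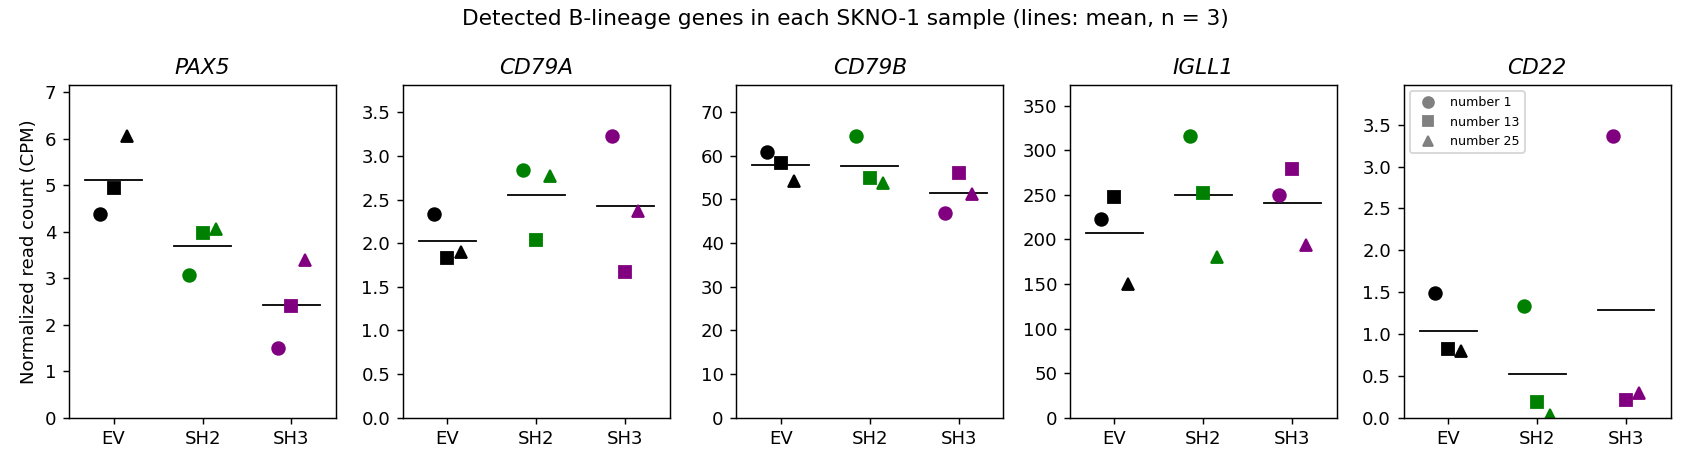
Normalized read count (CPM, linear axes from 0) of the 5 detected genes in each sample by group, with symbols for the sample number and a line at the mean of 3 samples. *PAX5* is lower in all 6 knockdown samples than in the 3 controls, while the groups overlap for the other 4 genes.

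The tested neighbours of *PAX5* on the chromosome did not pass. *MELK*, a kinase gene 155586 bp away, had mean levels of 60.8, 67.4 and 61.7 CPM in EV, SH2 and SH3, with 0.09 on the log2 scale for both shRNAs (SE 0.12, edgeR adjusted p = 0.968). *ZCCHC7*, 86306 bp away on the other side, had mean levels of 50.5, 53.8 and 54.5 CPM, with 0.10 on the log2 scale (SE 0.10, edgeR adjusted p = 0.938).

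None of the other detected genes passed with the shRNAs. In the fit without the block, 0 of the 4 others passed in any contrast, where 0% of all genes passed for SH2, 0% for SH3, 0% for both averaged and 0% for SH3 against SH2 (edgeR). At an unadjusted p under 0.05 there were 762, 723, 942 and 293 genes, and DESeq2 called 22, 26, 56 and 11. With the block, again 0 of these 4 genes passed, where 0.282% of all genes passed for SH2, 0.416% for SH3, 1.1% for both averaged and 0.106% for SH3 against SH2 (edgeR).

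*IGLL1*, on chromosome 22 (GRCh37, 23915312 to 23922489, minus strand), had the highest level of the 9 genes. Its EV samples numbered 1, 13 and 25 had 223, 248 and 151 CPM. The SH2 samples had 316, 253 and 180 CPM. The SH3 samples had 249, 279 and 194 CPM. The groups overlapped, but each knockdown sample was above the control of its own number (6 of 6 pairs), by a log2 ratio of 0.03 to 0.50. The share of all genes above in 6 of 6 pairs was not counted, and 11.6% were below in 6 of 6 pairs. The log2 fold change for both shRNAs was 0.24 (SE 0.21, edgeR adjusted p = 0.921), and 0.25 (SE 0.09, adjusted p = 0.149) with the block, so it did not pass. Counts of the similar genes *IGLL5* and *IGLL3P* were at most 1 and 3 in a sample, although reads that match several copies may have been split or dropped in the counting. A lncRNA gene on the opposite strand, ENSG00000224277, overlaps part of *IGLL1*, so reads from the shared stretch could not be told apart.

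*CD79A*, on chromosome 19 (GRCh37, 42381349 to 42385439, plus strand), had 2.34, 1.84 and 1.90 CPM in the EV samples numbered 1, 13 and 25. The SH2 samples had 2.85, 2.04 and 2.77 CPM. The SH3 samples had 3.23, 1.67 and 2.37 CPM. It was above the control of the same number in 5 of 6 pairs, a pattern whose share over all genes was not counted. The log2 fold change for both shRNAs was 0.29 (SE 0.24, edgeR adjusted p = 0.913) and did not pass. *CD79A* is among the genes that PAX5 activates in B cells, and here its fitted value was positive where that of *PAX5* was negative.

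*CD79B*, on chromosome 17 (GRCh37, 62006098 to 62009696, minus strand), was the steadiest of the detected genes, with a highest level 1.38 times its lowest. The EV samples numbered 1, 13 and 25 had 60.9, 58.3 and 54.3 CPM. The SH2 samples had 64.6, 54.9 and 53.7 CPM, and the SH3 samples 46.9, 56.1 and 51.2 CPM. The log2 fold change was -0.002 for SH2 (SE 0.11, edgeR adjusted p = 0.999) and -0.17 for SH3 (SE 0.11, edgeR adjusted p = 0.971), and neither passed. A protein-coding gene, ENSG00000285947, overlaps *CD79B* on the same strand, so part of its reads could be shared.

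**Figure D3:**
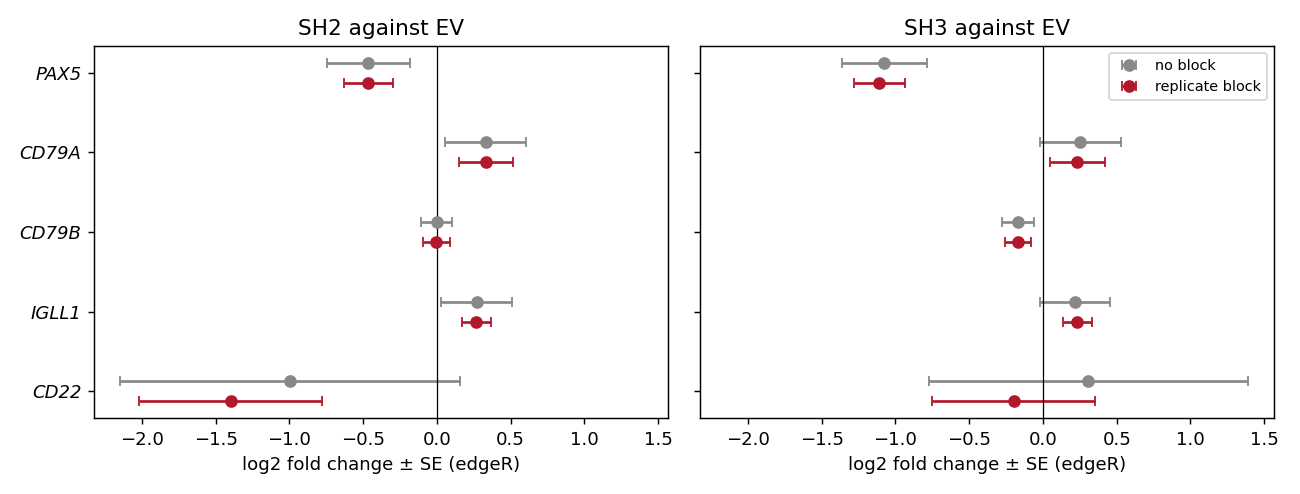
Log2 fold change against EV with its SE (edgeR) of the 5 detected genes in the fit without (grey) and with (red) the replicate number as a block, for SH2 and SH3. *PAX5* lies left of 0 in both panels, *CD79A* and *IGLL1* right of 0 by less than 0.4, and *CD22* has the widest error.

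*CD22*, which encodes an inhibitory coreceptor of B cells, had its highest counts in the samples numbered 1. On chromosome 19 (GRCh37, 35810164 to 35838264, plus strand), it had 54, 24 and 24 counts in the EV samples numbered 1, 13 and 25. The SH2 samples had 40, 6 and 1 counts, and the SH3 samples 99, 7 and 8. In numbers 13 and 25 the 4 knockdown samples (1 to 8 counts) lay below both controls (24 counts each), while in number 1 the SH3 sample was the highest of all, at 3.37 CPM against 1.48 in its control. Over all samples the log2 fold change for both shRNAs was -0.34 (SE 0.95, edgeR adjusted p = 0.986), and -0.80 (SE 0.51, adjusted p = 0.39) with the block. Without the samples numbered 1 it was -2.23 with the block and -2.22 without it. These values are given without a test, because *CD22* then passed the filter on low counts only through its EV samples. Over all 9 samples it passed the filter through its EV samples and the samples numbered 1.

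**Figure D4:**
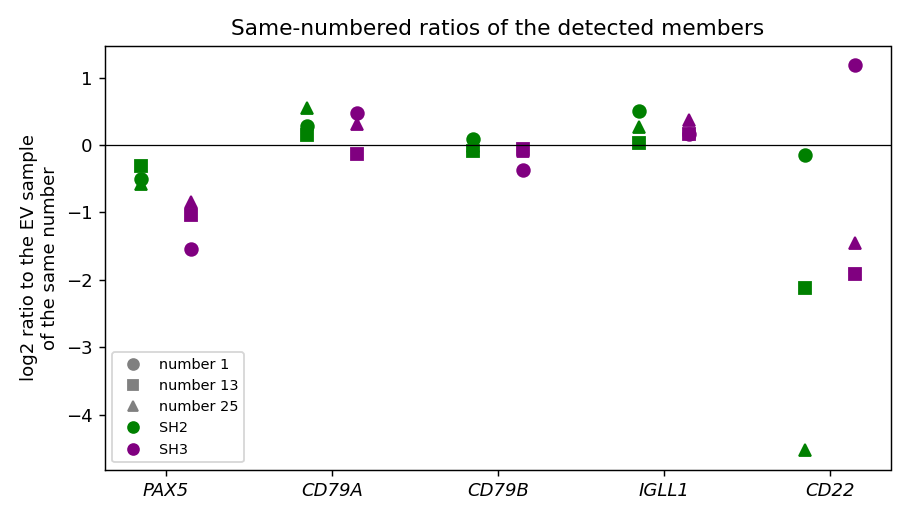
Log2 ratio of CPM in each SH2 (green) and SH3 (purple) sample to the EV sample of the same number (circle 1, square 13, triangle 25). All 6 ratios are below 0 for *PAX5* and above 0 for *IGLL1*, while for *CD22* the SH3 sample numbered 1 is above 0 and the lowest point rests on a single count.

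Differences between number 1 and the other numbers were common over all genes and not particular to this set. *PAX5* is counted here, although its contrasts against the control were not tested. Comparing number 1 with 13 and 25 within groups, 4 of the 5 detected genes passed, where 46.3% of all genes tested passed (edgeR). *CD22* rose most, by 2.48 (SE 0.46, edgeR adjusted p = 0.00233), and its 3 samples numbered 1 exceeded the other 6, as was so for 14.4% of genes. *CD22* had passed the filter on low counts only through its EV samples and those numbered 1, so its call is not independent of that filter. *IGLL1* was higher by 0.29 (SE 0.09, edgeR adjusted p = 0.0168). *CD79A* was higher by 0.43 (SE 0.15, edgeR adjusted p = 0.0423), a call that was lost without any of 8 of the samples, and without the SH3 sample numbered 1 the value was 0.29 (adjusted p = 0.214). *PAX5* was lower (log2 difference -0.51, SE 0.15, edgeR adjusted p = 0.0205), and without the SH3 sample numbered 1 the difference was -0.35 (adjusted p = 0.0697). The call for *IGLL1* was lost without the EV sample numbered 25, the SH2 sample numbered 1 (0.15, adjusted p = 0.123) or the SH2 sample numbered 25. Between numbers 25 and 13, 1 of the 5 genes passed, where 5.87% of all genes did: *IGLL1* was lower in 25 (log2 difference -0.58, SE 0.10, edgeR adjusted p = 0.011), and the call was lost without any of 4 samples (the EV samples numbered 13 and 25, the SH2 and the SH3 samples numbered 25).

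Other genes of the B lineage showed few changes with the shRNAs. Of 13 tested B-lineage transcription factors, 1 fell for both shRNAs with the block, where 1.1% of all genes passed, and none without it, where 0% passed: *MEF2C*, a MADS-box factor of B and myeloid cells. Its EV samples numbered 1, 13 and 25 had 42.6, 29.7 and 19.2 CPM, its SH2 samples 29.2, 16.9 and 14.8, and its SH3 samples 31.5, 16.3 and 15.9. Each knockdown sample was below the control of its number, as was so for 11.6% of the genes tested. The log2 value was -0.56 (SE 0.09, edgeR adjusted p = 0.0329) with the block and -0.56 (SE 0.32, adjusted p = 0.847) without it. The median log2 fold change of the 13 factors was 0.01 with the block, as over all genes. The 3 most abundant, *TCF12*, *RUNX1* and *IKZF1*, which act in many blood lineages, had fold changes of 0.01 (SE 0.06), -0.20 (SE 0.07) and -0.05 (SE 0.06) and did not pass (edgeR adjusted p = 0.962, 0.155 and 0.676 with the block). *RUNX1* had 297 to 308 CPM in EV, 254 to 279 in SH2 and 221 to 286 in SH3. It was thus lower in all 6 knockdown samples than in all 3 controls, as were 2.61% of the genes tested.

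Of 15 tested genes of pre-B and B-cell receptor signalling, none passed for both shRNAs. Of all genes, 0% passed without the block and 1.1% with it. The median log2 fold change of the 15 was -0.07 with the block against 0.01 for all genes. With the block, 14 of the 15 were negative for SH2 (median -0.16) and 9 for SH3 (median -0.03), where 48.8% and 48.2% of all genes were negative. Its most abundant genes were *CD81*, a tetraspanin of the B-cell coreceptor complex (223 CPM on average over the 9 samples), *PTPN6*, a phosphatase that acts on inhibitory receptors such as CD22 (219 CPM), and *INPP5D*, an inositol phosphatase (212 CPM). Their log2 fold changes with the block were 0.23 (SE 0.06), -0.06 (SE 0.09) and -0.07 (SE 0.07), and none passed (edgeR adjusted p = 0.101, 0.711 and 0.588). In the comparison of number 1 with 13 and 25, 8 of the 15 passed, all of them higher in number 1, where 46.3% of all genes passed in either direction.

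Of 10 tested stage and surface markers, none passed for both shRNAs, where 0% of all genes passed without the block and 1.1% with it. The most abundant were *CD24* (126 CPM on average), a surface protein of early B cells and other lineages, *CD37* (72.8 CPM) and *CD38* (69.8 CPM). *CD37*, a tetraspanin of B cells, was 91.5, 68.2 and 43.3 CPM in EV, 95.5, 53.4 and 48.9 in SH2 and 168, 42.4 and 44.7 in SH3, for numbers 1, 13 and 25. In the comparison of number 1 with 13 and 25, 5 of the 10 markers rose and 2 fell, where 46.3% of all genes passed. As with *CD22*, the SH3 sample numbered 1 was the highest for *CD37*, which was higher in number 1 by 1.22 (SE 0.19, edgeR adjusted p = 0.000981).

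The genes known to be activated or repressed by PAX5 did not pass in any contrast of the shRNAs (edgeR). Of all genes, 0% passed without the block and 0.106% to 1.1% with it, so this does not show that they were unchanged. Of 10 activated genes, 3 were tested. *CIITA*, the activator of MHC class II genes, had 23, 17.9 and 11.1 CPM in the EV samples numbered 1, 13 and 25, 10.5, 7.64 and 6.96 in SH2, and 17.3, 5.49 and 9.03 in SH3. It was below the control of its number in 6 of 6 pairs, as were 11.6% of the genes tested. Its log2 value with the block was -0.90 (SE 0.19, edgeR adjusted p = 0.0531) against -0.88 (SE 0.33, adjusted p = 0.72) without it. *CD72*, a B-cell coreceptor, and *LEF1*, a factor of the WNT pathway, had values of -0.04 (SE 0.29, edgeR adjusted p = 0.949) and 0.26 (SE 0.17, adjusted p = 0.407) with the block. Of 10 repressed genes, 6 were tested, 3 with positive and 3 with negative values. The most abundant were *EMB* (-0.09, SE 0.07), which encodes a membrane glycoprotein, *NOTCH1* (-0.37, SE 0.09), a receptor that directs T-cell fate, and *FLT3* (-0.20, SE 0.09), a receptor kinase of progenitors (edgeR adjusted p = 0.442, 0.0727 and 0.238 with the block).

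The genes whose log2 CPM followed *PAX5* most closely over the 9 samples were *MAP4K4* (Pearson r = 0.989), *SLC26A1* (0.976), *PLXNB1* (0.973), *ZC3H7B* (0.966) and *TRIM44* (0.948). All 5 have canonical transcripts longer than the median of 3182 nt, and all 5 were lowest in the SH3 sample numbered 1, as *PAX5* was. They were picked by this correlation over the same samples, so a shared lowest sample follows largely from the choice. Among the detected genes of the set, r with *PAX5* was 0.449 for *CD79B*, -0.302 for *CD22*, -0.489 for *CD79A* and -0.539 for *IGLL1*. These correlations share the libraries and the groups and are given as a description.

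**Figure D5:**
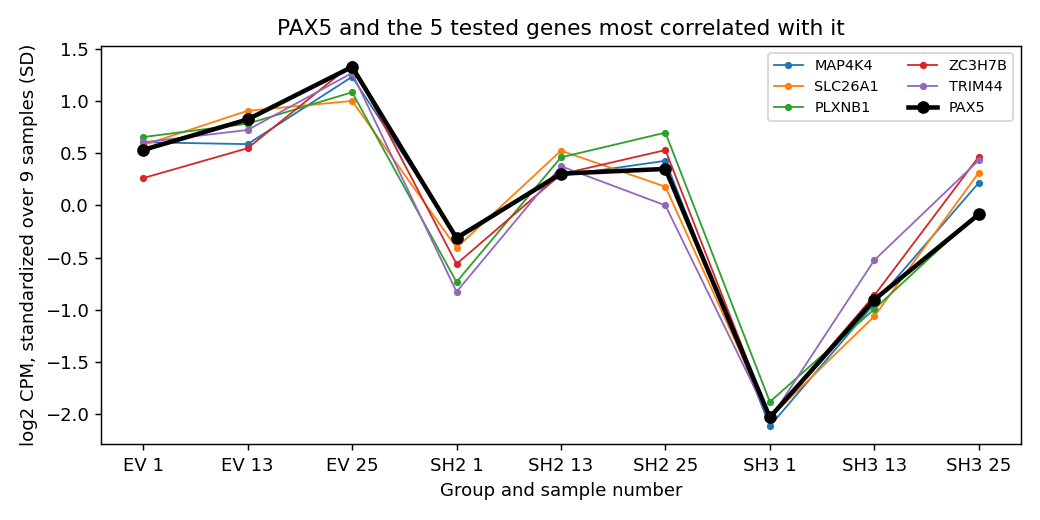
Log2 CPM of *PAX5* (black) and of the 5 tested genes most correlated with it, each standardized to its mean and SD over the 9 samples on the x axis. All 6 genes are lowest in the SH3 sample numbered 1 and highest in the EV sample numbered 25.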

How the data were processed

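RNA from 9 SKNO-1 samples was analysed from the whole-number counts per RefSeq transcript (hg19) that the authors deposited; the submitters' processing notes name STAR, featureCounts and DESeq2 without versions, and per the study's methods, libraries were poly(A)-selected and unstranded, and Cuffdiff was run. The extraction text in the labels describes sorted bone marrow cells; the samples were treated as SKNO-1 cells. Each symbol was represented by its row with the highest total over the samples. Genes were kept by filterByExpr (minimum count 10, minimum total 15), which left 14199, and tested with the quasi-likelihood F test of edgeR 4.0.16 in R 4.3.3 with TMM scaling, 1 coefficient per group and Benjamini-Hochberg adjustment over all genes (threshold 0.05). CPM used the TMM-scaled total. The SE was the log2 fold change divided by the square root of F. The sample number entered as a block in an alternative fit: deviations from the group means of same-numbered samples correlated at 0.398 to 0.731 over 9 pairs, against -0.616 to 0.306 over 18 other pairs. Number contrasts had group as a covariate.

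The members and lists were chosen with earlier results of these data known. Named were the 9 genes, *ASXL2*, list genes called in a contrast of the shRNAs, the 3 most abundant of each list, the 5 genes most correlated with *PAX5* and its tested neighbours. Genes outside this rule are said to be so or serve as markers. Alternatives were other size factors (RLE), filters, summed rows, DESeq2 1.42.0, left-out samples and a correction for transcript length, for which 86.9% of tested genes had a length. RPKM and the contrast without samples numbered 1 and without the block were added after the data had been seen. The edgeR and DESeq2 fits for both shRNAs averaged and for number 1 were tested on simulated data. A marker among the lists is not reported here.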

Additional observations from a re-analysis of the deposited data

How the results depend on the processing

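The replicate block changed no call of a tested member in the contrasts of the shRNAs, but it moved the counts of genes called for SH2, SH3, both averaged and SH3 against SH2 from 0 to 40, 59, 156 and 15. DESeq2 called 22, 26, 56 and 11 without the block and 369, 474, 629 and 155 with it. The block with the length correction gave 9, 46, 25 and 17. Leaving out 1 sample without the block gave 0 to 0 for SH2, 0 to 1 for SH3, 0 to 2 for both and 0 to 0 for SH3 against SH2. Leaving out number 1, 13 or 25 with the block gave 0 to 267 for SH2, 1 to 341 for SH3, 1 to 370 for both and 0 to 129 for SH3 against SH2, with 9 and 24 for SH2 and SH3, 7 for both and 61 for SH3 against SH2 without number 13. Between numbers 25 and 13, the count of 833 became 304 with group left out of the fit and ranged from 50 to 2750 with 1 sample left out.

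Directions changed in these cases. The log2 fold change of *CD79B* for SH2 was 0.004 with rows summed. That of *CD22* for SH3 was -0.199 with the block (adjusted p = 0.874), -0.201 with the length correction too, and -0.739 in DESeq2 with the block. With samples left out, the ranges were -0.09 to 0.037 for *CD79B*, SH2 against EV, -2.226 to 0.021 for *CD22*, both shRNAs against EV, -1.233 to 0.774 for *CD22*, number 25 against 13, -0.345 to 0.139 for *CD79A*, SH3 against SH2, -0.224 to 0.154 for *IGLL1*, SH3 against SH2, -0.035 to 0.18 for *CD79B*, number 1 against 13 and 25, -0.019 to 0.466 for *CD79A*, SH3 against EV, -2.039 to 0.822 for *CD22*, SH3 against EV and -1.032 to 3.453 for *CD22*, SH3 against SH2. With the block and without number 1, *CD22* for SH3 was -1.678 and *IGLL1* for SH3 against SH2 was 0.121; without number 13, *CD79B* for SH2 was 0.034. Without number 1 and without the block, *CD22* for both was -2.221. The number 1 calls of *PAX5*, *CD79A* and *IGLL1* were also lost with group left out of the fit (adjusted p = 0.287, 0.0684 and 0.0532), and that of *CD79A* in DESeq2 (0.145). Of the log2 fold changes under an alternative, 507 counted as the same, 24 reversed, 20 lost a call, 3 gained one and 1 moved. The same meant an unchanged direction and side of the threshold. For *PAX5* against the control, which had no test, it meant an unchanged direction and a shift smaller than the SE. The value that moved was one of *PAX5* against the control, which kept its direction but shifted by at least the SE. Causes were not tested. The lowest member counts (*CD22*, 1 to 99) limit its precision most.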

Other observations

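Few myeloid genes of the line passed with the shRNAs. Of 13 tested myeloid markers, 1 fell for both shRNAs averaged with the block, where 1.1% of all genes passed, and none without it, where 0% passed: *CSF3R*, the receptor for granulocyte colony-stimulating factor. Its EV samples numbered 1, 13 and 25 had 282, 219 and 174 CPM, its SH2 samples 234, 141 and 124, and its SH3 samples 206, 152 and 147. Each knockdown sample was below the control of its number, as was so for 11.6% of the genes tested. The log2 fold change was -0.43 (SE 0.08, edgeR adjusted p = 0.0385) with the block and -0.43 (SE 0.22, adjusted p = 0.806) without it. The summed level of the 15 myeloid markers was 8820 to 11000 CPM in EV, 7890 to 12000 in SH2 and 8710 to 11300 in SH3, with *MPO*, *ELANE* and *KIT* the most abundant.

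The next genes were looked up after their values were seen. *POU2F2*, the octamer-binding partner of the undetected *POU2AF1*, had 6.08, 6.22 and 4.63 CPM in the EV samples numbered 1, 13 and 25, 4.42, 4.39 and 4.30 in SH2, and 4.02, 2.69 and 2.58 in SH3. All 6 knockdown samples were below all 3 controls, as was so for 2.61% of the genes tested. The log2 value was -0.62 (SE 0.14, edgeR adjusted p = 0.0631) with the block and -0.62 (SE 0.18, adjusted p = 0.623) without it. *EBF3*, of the family of the undetected *EBF1*, had 0.14 on the log2 scale for both shRNAs (SE 0.26, edgeR adjusted p = 0.977) and was lower in number 1 than in 13 and 25 (log2 difference -0.67, SE 0.13, adjusted p = 0.00295).

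Of the 5 tested T-lineage markers, none passed in a contrast of the shRNAs, where at most 1.1% of all genes passed (edgeR). The most abundant were *CD7* (1.91 CPM on average), *CD8A* (1.59 CPM) and *CD247* (1.23 CPM).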
